A study of Mus musculus with 18 samples.

Results

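DNA methylation and imprint maintenance genes were described in oocytes that had grown in the mouse or in culture. The 10 genes were Dnmt1, Dnmt3a, Dnmt3b, Dnmt3l, Uhrf1, Tet1, Tet2, Tet3, Zfp57 and Trim28. They were chosen by name, each as the 1 row with that gene symbol among the 28252 genes of the TPM table (a level scaled for gene length and library size), and their reads were taken from the count table of 53715 genes by the same Ensembl identifier. All 10 were found in both tables. Each gene was followed through 18 libraries, 3 in each of 6 groups. Ovaries removed at 7 or 14 days of age came from F1 females of C57Bl/6j x CBA/J. The paper names no other cross, but does not state that of the adult females that gave the MII oocytes *in vivo*. Oocytes of primordial and primary follicles of the *in vivo* group were taken from the ovaries of 14-day-old mice. In the *in vitro* group, ovaries removed at 7 days of age were cultured for 7 days with serum, insulin, transferrin, selenite and recombinant FSH before the same oocytes were taken. MII oocytes of the *in vitro* group came from secondary follicles isolated from such cultured ovaries, grown in alginate for 12 more days with FSH and ovulated with hCG, whereas MII oocytes of the *in vivo* group were collected from superovulated adult females of an age that is not stated. Each MII library held 10 oocytes. The smaller oocytes were picked by appearance on fixed, stained paraffin sections and collected by laser capture microdissection (LCM), and RNA of several caps was pooled, and the split of the oocytes over the libraries is not stated.

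DNA methylation in mammals sits mostly on cytosines of CpG dinucleotides. It is erased in primordial germ cells, and the oocyte lays it down again while it grows, mainly over transcribed gene bodies and at the control regions of maternally imprinted genes. DNMT3A with its catalytically inactive partner DNMT3L makes this new methylation. DNMT1 copies methylation onto the new strand after replication and is brought to it by UHRF1. The TET enzymes oxidise methylcytosine. ZFP57 binds methylated imprinting control regions, and TRIM28 (KAP1) is the scaffold through which such KRAB zinc finger proteins silence chromatin. In mice, ZFP57, TRIM28, DNMT1 and TET3 supplied by the egg also act in the embryo after fertilization.

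The LCM libraries held 15149564 to 29205503 counts and the MII libraries 7334817 to 9978830, so the floor of 3 counts per library stood for 0.103 to 0.198 and 0.301 to 0.409 CPM, the counts of a gene relative to all counts of its library. Floors cover counting error only. Replicates were related with a Spearman's rho of 0.381 to 0.756 in the LCM groups and of 0.853 to 0.912 in the MII groups. Of the 15 oocyte markers, 12 to 15 were above the floor in each LCM library and 13 to 14 in each MII library. Their summed level was 365 to 1977 TPM in the LCM libraries and 10462 to 21087 TPM in the MII libraries. Granulosa markers summed to 22.5 to 2352 TPM in the LCM libraries against 30.3 to 76.5 TPM in the MII libraries, and stroma and theca markers to 453 to 11409 against 0.158 to 4.11 TPM. The granulosa markers did not all go 1 way. Foxl2 and Amhr2 were at 0 in all MII libraries, where Cyp19a1 was at 17.5 to 64.7 TPM against at most 0.193 TPM in the LCM libraries. Endothelium markers summed to 0 to 69.7 TPM in the LCM and 36.1 to 97.5 TPM in the MII libraries, and immune markers to 0 to 1.87 and 2.68 to 12.4 TPM. Blood markers reached 7508 TPM in 1 LCM library and stayed at or under 0.755 TPM in the MII libraries. Oocyte markers were thus found in every library, but Bmp15 and Oosp1 were at or under the floor in all primordial *in vivo* libraries and Sohlh1 in all MII libraries. The LCM libraries also held markers of surrounding cells, and fewer oocytes in a sample cannot be told apart from less RNA per oocyte. LCM and MII libraries were extracted and made with different kits, and LCM libraries were enriched for coding sequence, so stage and kit cannot be told apart and no test compared MII with LCM libraries.

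The promoter windows of RefSeq (GRCm38, from 250 bases before to 50 bases after each start) were read for all 10 genes, which had 19 windows in all. They were counted for CpG, the dinucleotide these enzymes act on. Windows are shown for Uhrf1, Dnmt3l, Zfp57 and Dnmt1. The levels of Uhrf1 and Dnmt3l did not overlap between the 2 MII groups, as held for 13.7% of all genes. Neither was called in the main test given below. Zfp57 was low in all LCM and high in all MII libraries, and 18.6% of all genes had all MII above all LCM libraries. The outermost starts of Dnmt1 lay 7265 bases apart. Sequences run 5′ to 3′ on the strand of the gene, and capitals mark each CpG.
Uhrf1, chr17:56303087-56303386, plus strand: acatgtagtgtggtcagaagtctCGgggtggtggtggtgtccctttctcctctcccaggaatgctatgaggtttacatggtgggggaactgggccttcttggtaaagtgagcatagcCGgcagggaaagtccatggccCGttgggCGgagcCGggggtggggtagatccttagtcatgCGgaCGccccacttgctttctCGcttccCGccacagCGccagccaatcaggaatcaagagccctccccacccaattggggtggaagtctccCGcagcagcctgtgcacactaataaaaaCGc
Uhrf1, chr17:56304063-56304362, plus strand: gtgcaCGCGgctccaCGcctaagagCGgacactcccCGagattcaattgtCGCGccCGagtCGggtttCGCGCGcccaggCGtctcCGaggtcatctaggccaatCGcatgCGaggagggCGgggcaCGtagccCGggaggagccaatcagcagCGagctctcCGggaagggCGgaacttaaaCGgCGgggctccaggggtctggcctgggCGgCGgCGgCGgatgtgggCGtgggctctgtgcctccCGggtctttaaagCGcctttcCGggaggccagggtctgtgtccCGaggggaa
Dnmt3l, chr10:78042037-78042336, plus strand: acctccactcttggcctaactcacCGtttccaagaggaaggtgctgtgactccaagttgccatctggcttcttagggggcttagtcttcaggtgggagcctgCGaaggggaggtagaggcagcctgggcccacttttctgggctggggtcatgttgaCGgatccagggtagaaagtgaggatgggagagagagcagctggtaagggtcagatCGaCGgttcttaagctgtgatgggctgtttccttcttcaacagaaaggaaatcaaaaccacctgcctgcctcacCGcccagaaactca
Zfp57, chr17:37000913-37001212, plus strand: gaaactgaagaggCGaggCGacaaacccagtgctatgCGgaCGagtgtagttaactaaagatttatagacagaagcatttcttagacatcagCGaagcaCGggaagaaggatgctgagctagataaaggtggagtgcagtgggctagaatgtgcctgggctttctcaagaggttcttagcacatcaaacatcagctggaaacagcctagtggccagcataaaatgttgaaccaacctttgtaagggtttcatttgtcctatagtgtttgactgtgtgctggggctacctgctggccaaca
Dnmt1, chr9:20959839-20960138, minus strand: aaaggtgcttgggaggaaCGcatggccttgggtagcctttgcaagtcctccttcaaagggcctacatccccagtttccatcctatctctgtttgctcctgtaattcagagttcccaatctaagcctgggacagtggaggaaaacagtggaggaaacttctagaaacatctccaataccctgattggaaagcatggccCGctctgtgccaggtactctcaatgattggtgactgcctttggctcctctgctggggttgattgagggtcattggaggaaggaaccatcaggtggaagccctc
Dnmt1, chr9:20952574-20952873, minus strand: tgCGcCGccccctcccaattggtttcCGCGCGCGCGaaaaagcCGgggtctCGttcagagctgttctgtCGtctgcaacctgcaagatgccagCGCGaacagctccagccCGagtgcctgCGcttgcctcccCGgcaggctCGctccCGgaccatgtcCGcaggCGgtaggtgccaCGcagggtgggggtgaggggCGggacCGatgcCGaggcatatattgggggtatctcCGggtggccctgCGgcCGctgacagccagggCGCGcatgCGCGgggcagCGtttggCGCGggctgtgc

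These windows differed widely in CpG. The median over all 32851 windows of the table was 7 CpG, and the median over the 19 windows of the members was 17. Dnmt3l held 3 to 6 CpG in its 3 windows and Zfp57 held 4 to 9 in its 3 windows. Tet2 had 57 CpG, and 99.8% of all windows had fewer. Dnmt3a had 18 to 47, Dnmt3b 30, Trim28 23, Tet3 22 and Tet1 17. Uhrf1 held 12 CpG in the upstream and 33 in the downstream window, and Dnmt1 held 2 in the most upstream and 33 in the most downstream window. The letters CCAAT, searched on both strands, lay in 37.4% of all windows and in 6 windows of 4 members. Uhrf1 had 3 and 2 matches in its windows and the shown windows of Dnmt1 had 5 and 3. The letters GGGCGG lay in 35.7% of all windows and in 13 windows of 9 members, with none in those of Zfp57. Counts per gene sum all transcripts and do not show which start was used.

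Dnmt3a (ENSMUSG00000020661, chr12:3806007-3914443, plus strand, GENCODE M21 on GRCm38), the main de novo methyltransferase of the growing oocyte, was read in all 18 libraries, with 107 to 11829 counts. Its TPM in the *in vivo* group was 97.6, 5.08 and 93.8 in oocytes of primordial follicles and 28.3, 87.2 and 99.8 in those of primary follicles. In the *in vitro* group, it was 39.1, 44.2 and 0.999 at the primordial and 62.7, 94.0 and 36.1 at the primary stage. Apart from single low libraries in both primordial groups, at 5.08 and 0.999 TPM, the LCM libraries lay between 28.3 and 99.8 TPM. MII oocytes held 24.9, 67.3 and 70.7 TPM in the *in vivo* and 17.99, 56.0 and 39.3 TPM in the *in vitro* group, within the range of the LCM libraries. Dnmt3a shares 133 exonic bases with the antisense gene Dnmt3aos, which had 234 counts over the 18 libraries.

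Dnmt3b (ENSMUSG00000027478, chr2:153649450-153687730, plus strand), a second de novo methyltransferase, was at 11.8, 0.194 and 0 TPM in primordial follicles *in vivo* and at 0.415, 3.79 and 0 TPM *in vitro*. In oocytes of primary follicles, no library exceeded 0.992 TPM. MII oocytes had 45.6, 17.9 and 25.8 TPM in the *in vivo* and 31.2, 36.3 and 50.9 TPM in the *in vitro* group. Every MII library was therefore above every LCM library. Dnmt3c, a neighbouring near copy of Dnmt3b, had 0 to 47 counts per library, and how reads shared by both were counted is not stated.

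Dnmt3l (ENSMUSG00000000730, chr10:78041947-78063622, plus strand), the partner that stimulates DNMT3A, was listed at 0 in 11 of 12 LCM libraries and had 5 counts in the remaining one, primary *in vitro* 1, at 0.242 TPM. At these depths, 0 counts allow up to 3 counts per library. In MII oocytes it had 178 to 1016 counts. The *in vivo* libraries were at 16.8, 56.1 and 36.0 TPM and the *in vitro* libraries at 58.9, 61.6 and 104 TPM. Dnmt3l shares 67 exonic bases with Aire on the opposite strand, and whether counting used strand is not stated. Aire also had no counts in 11 LCM libraries, and had 45 in primary *in vitro* 1, 32, 18 and 38 in the MII libraries *in vivo* and 59, 63 and 109 in those *in vitro*. Reads of the shared bases cannot be told apart, and the part of Aire in the counts of Dnmt3l was not tested.

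Dnmt1 (ENSMUSG00000004099, chr9:20907209-20959888, minus strand), the maintenance methyltransferase, was above the floor in all 18 libraries. Its TPM was 4.10, 6.13 and 1.65 in primordial follicles *in vivo* and 75.7, 28.4 and 148 in primary follicles *in vivo*. These groups did not overlap. In the *in vitro* group, it was 0.144, 163 and 12.5 at the primordial and 85.1, 59.0 and 41.7 at the primary stage, where the groups overlapped because primordial *in vitro* 2 was the highest of the 12 LCM libraries. MII oocytes were at 38.5, 193 and 109.7 TPM *in vivo* and 149, 172 and 128 TPM *in vitro*.

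Uhrf1 (ENSMUSG00000001228, chr17:56303321-56323486, plus strand), which recognises hemimethylated DNA, was low in all LCM libraries, between 0.287 and 16.5 TPM from 9 to 598 counts. Its mean ± SD was 2.61 ± 2.94 TPM in primordial and 6.66 ± 4.80 TPM in primary follicles *in vivo*, and 8.68 ± 6.79 and 8.75 ± 2.06 TPM *in vitro* (n = 3 each). In each comparison of stage or of culture these groups overlapped. MII oocytes held 464, 533 and 515 TPM in the *in vivo* group and 114, 356 and 210.3 TPM in the *in vitro* group, so the lowest MII library was above the highest LCM library and the *in vivo* and *in vitro* libraries did not overlap. The ratio of the MII to the LCM median was 71.7, across different kits, which cannot be told apart from stage.

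Tet3 (ENSMUSG00000034832, chr6:83362373-83459084, minus strand), the TET enzyme of the egg and zygote, was the main member of its family. *In vivo* it was at 1.57, 52.3 and 57.6 TPM in primordial and 258, 53.5 and 335 TPM in primary follicles. *In vitro* it was at 0.444, 469 and 12.8 TPM in primordial and 286, 112 and 133 TPM in primary follicles. The primordial libraries spread over the widest range, and the stages overlapped in both groups. MII oocytes were close together, at 177, 224 and 239 TPM *in vivo* and 209, 222 and 245 TPM *in vitro*.

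Tet2 (ENSMUSG00000040943, chr3:133463679-133545139, minus strand) was at or below 4.81 TPM in 10 of 12 LCM libraries and reached 60.5 TPM in primordial *in vivo* 2 and 28.3 TPM in primary *in vivo* 3. In MII oocytes it was at 0.109 to 1.36 TPM from 6 to 81 counts. Tet2 shares 43 exonic bases with the antisense gene Gm42567, which had 27 counts. Tet1 (ENSMUSG00000047146, chr10:62804570-62908996, minus strand) had 0 to 0.258 TPM from 0 to 32 counts in the LCM libraries and 0.346 to 2.26 TPM from 19 to 104 counts in the MII libraries. Tet1 was thus the lowest of the family by its median in the LCM libraries, and Tet2 in the MII libraries.

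Zfp57 (ENSMUSG00000036036, chr17:37001163-37010635, plus strand), which keeps methylation at imprints, was read in every LCM library but only with 6 to 129 counts, at 0.215 to 4.00 TPM. Its group means lay between 1.46 and 2.04 TPM in the 4 LCM groups. MII oocytes were at 276, 666 and 574 TPM *in vivo* and at 253, 637 and 296 TPM *in vitro*. The MII median was 208 times the LCM median, across different kits, which cannot be told apart from stage. This was the largest ratio among the 7 members that were above the floor in at least 11 of the 12 LCM libraries. No ratio was formed for Dnmt3b, Tet1 and Dnmt3l, which were above it in 6, 6 and 1.

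Trim28 (ENSMUSG00000005566, chr7:12999114-13031035, plus strand), the corepressor that ZFP57 recruits, did not share this pattern. It was at 4.97, 42.5 and 0.0652 TPM in primordial and 675, 99.6 and 218 TPM in primary follicles *in vivo*, and these groups did not overlap. *In vitro*, it was at 37.8, 48.5 and 280.4 TPM in primordial and 42.2, 149 and 128 TPM in primary follicles, and these groups did. MII oocytes held 123, 189.7 and 223 TPM *in vivo* and 70.2, 125 and 149 TPM *in vitro*, inside the LCM range.

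**Figure D1:**
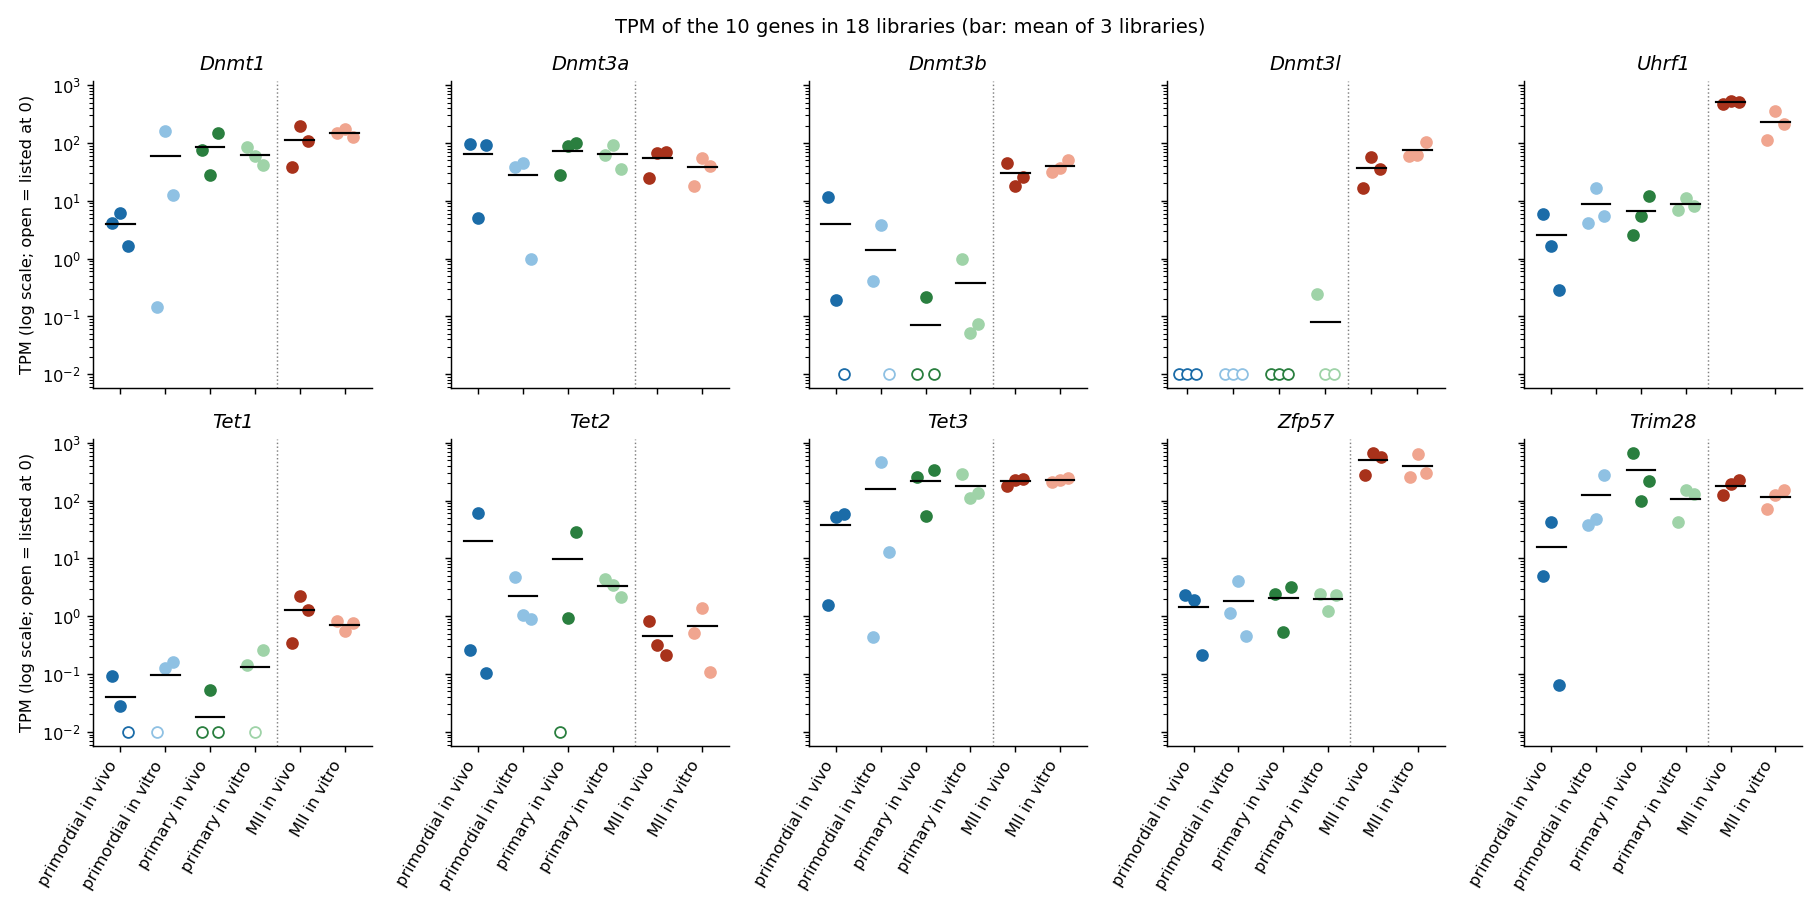
TPM of each of the 10 genes (vertical axis, log scale) in the 6 groups (horizontal axis). Each point is 1 library, the bar is the mean of 3 libraries, open circles at 0.01 are libraries listed at 0, and the dotted line divides LCM from MII libraries, which were made with different kits. Dnmt3b, Dnmt3l, Uhrf1, Tet1 and Zfp57 had all MII libraries above all LCM libraries.

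In 5 of the 10 genes (Dnmt3b, Dnmt3l, Uhrf1, Tet1 and Zfp57) all 6 MII libraries were above all 12 LCM libraries in TPM, against 18.6% of the 22229 genes above the floor in at least 1 library. None of the 10 had all MII libraries below all LCM libraries, against 1.58% of all genes. The same 5 genes were found when CPM took the place of TPM, and no further member met the rule when any 1 of the 18 libraries was left out. Between neighbours in the order of group means, libraries overlapped at all 5 steps for Dnmt1, Dnmt3a, Tet2, Tet3 and Trim28, so no 2 neighbours in the order of their 6 groups were separated beyond the spread of the libraries. Groups farther apart in that order could be, as *in vivo* for the primordial and primary stages of Dnmt1 and Trim28. For Dnmt3b, Tet1 and Zfp57 neighbours were separated only between the MII and the LCM groups. For Uhrf1 and Dnmt3l they were separated there and also between the 2 MII groups.

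Shares within the families followed the same lines. Tet3 made up 98.9% to 99.6% of the summed TPM of the 3 Tet genes in the MII libraries and was the highest of them in 10 of 12 LCM libraries. Tet2 was the highest in the other two, with up to 91.5% of the sum. Of the 4 Dnmt genes, Dnmt1 was the highest in 7 and Dnmt3a in 5 LCM libraries. In the MII libraries, Dnmt1 was the highest in 5 and Dnmt3b in 1, and all 4 contributed, with 30.6% to 57.9% for Dnmt1, 6.998% to 29.2% for Dnmt3a, 5.36% to 36.3% for Dnmt3b and 13.3% to 32.3% for Dnmt3l. Dnmt3l had 13.3% to 16.8% of the sum in the *in vivo* and 18.9% to 32.3% in the *in vitro* MII libraries, without overlap. Dnmt3a had 19.8% to 29.2% *in vivo* and 6.998% to 17.2% *in vitro*, without overlap in the other direction. The shares of Dnmt1 and Dnmt3b overlapped. Shares of 1 sum are tied to each other, and how often shares of other families do not overlap was not counted.

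**Figure D2:**
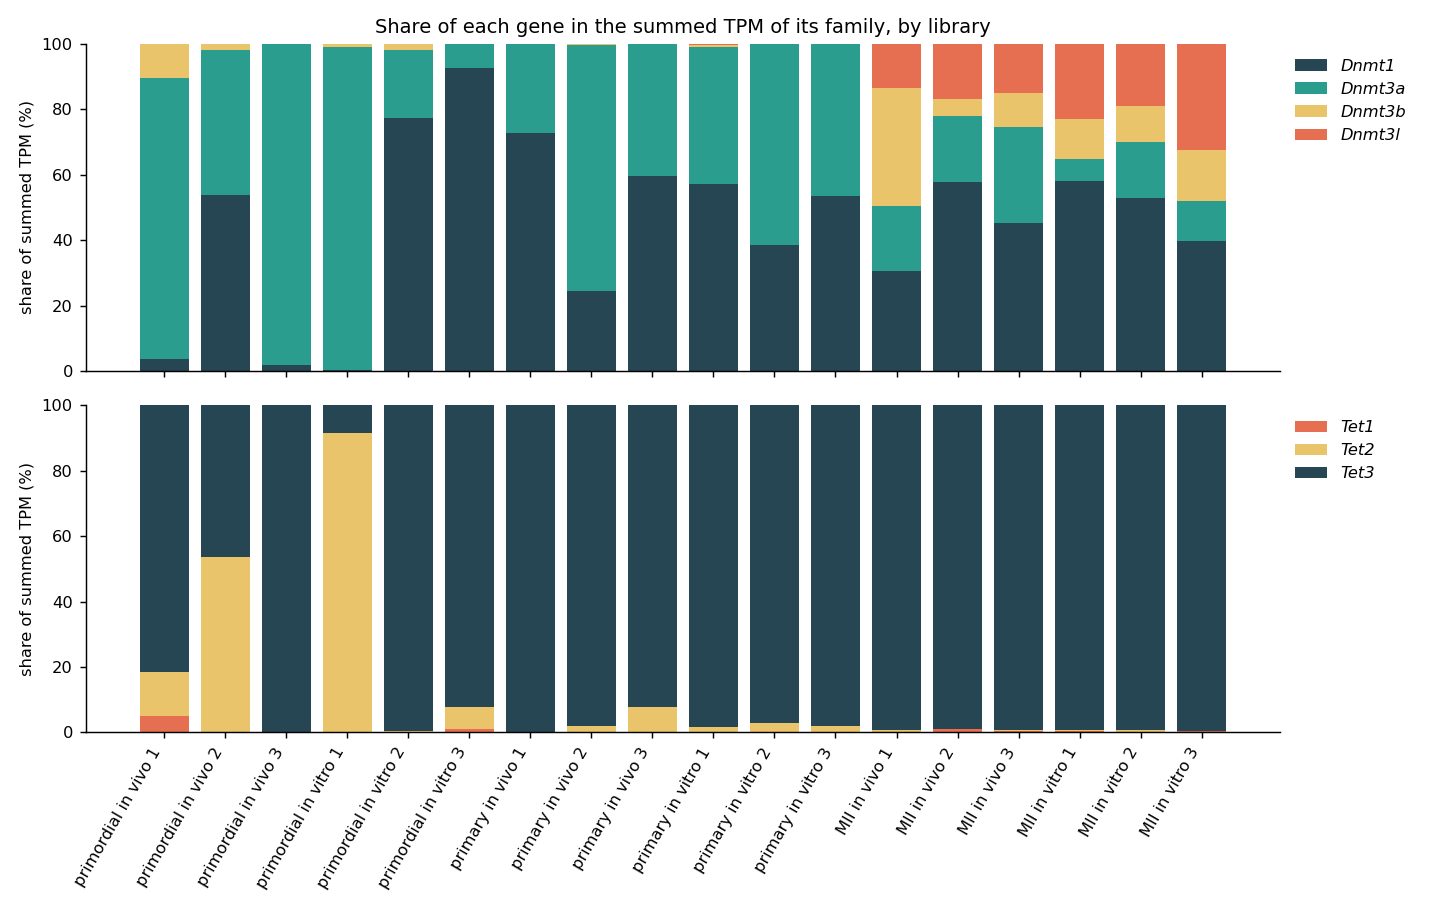
Share of each gene in the summed TPM of its family (vertical axis, percent) in each of the 18 libraries (horizontal axis), Dnmt genes above and Tet genes below. Dnmt3l contributed in the MII libraries at 13.3% to 32.3%, and Tet3 made up at least 98.9% of the Tet sum there.

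The question of whether MII oocytes from culture differ from those grown in the mouse was put to all 17144 genes with at least 10 counts in the 6 MII libraries. The test was the quasi-likelihood test of edgeR, adjusted after Benjamini and Hochberg over all genes, and calls needed an adjusted p under 0.05 together with a change of 2 times or more. None of the 10 members was called, against 0.35% of all genes tested (60 genes). With an unadjusted p under 0.05 there were 2 of 10 members, Uhrf1 and Dnmt3l, against 10.2% of all genes. Uhrf1 was lower *in vitro* by a log2 fold change of -1.17 ± 0.35 (SE; edgeR adjusted p = 0.266), with 3 of 3 *in vitro* libraries below all *in vivo* libraries. Dnmt3l was higher *in vitro* by 1.14 ± 0.42 (SE; edgeR adjusted p = 0.409), again with 3 of 3 libraries on 1 side. These were the only members whose libraries did not overlap between the groups, 2 of 10 against 13.7% of all genes in either direction (7.75% higher and 5.97% lower). DESeq2 with its defaults called Uhrf1 with an adjusted p of 0.0328 among 2.05% of all genes, DESeq2 without its filters with 0.0406 among 1.87%, and limma-voom with sample quality weights with 0.0443 among 2.96%. Only these 3 of the 21 alternatives called Uhrf1. Over all tools, scalings, filters and samples, these 3 included, its adjusted p lay between 0.0328 and 1, and that of Dnmt3l between 0.12 and 1. Of the oocyte markers, Ddx4 also had no overlap, at 13.4 to 34.8 TPM *in vivo* and 217 to 368 TPM *in vitro*. The same held for Bmp15 (166 to 298 and 365 to 555 TPM) and Gdf9 (8623 to 14549 and 4976 to 7601 TPM). All other oocyte markers overlapped. Ddx4, Bmp15 and Gdf9 were named after their values were seen, and their part in the values of Uhrf1 and Dnmt3l was not tested.

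The other 8 members differed by less in MII oocytes, and each missed an unadjusted p of 0.05. The log2 fold changes of *in vitro* over *in vivo* by edgeR were 0.52 ± 0.44 (SE) for Dnmt1, -0.50 ± 0.40 for Dnmt3a, 0.40 ± 0.42 for Dnmt3b and 0.16 ± 0.32 for Tet3. Those of the imprint genes Zfp57 and Trim28 were -0.32 ± 0.38 and -0.60 ± 0.33. Tet1 and Tet2, with few reads, had -0.69 ± 0.75 and 0.49 ± 0.99. Errors of this size do not show that these genes were equal. Over the 10 members 5 were higher and the median log2 fold change was -0.08, beside 0.04 over all genes tested. Granulosa markers summed to 38.4 to 76.5 TPM in the *in vivo* and 30.3 to 62.5 TPM in the *in vitro* MII libraries, and the 4 blood markers to 0 and at most 0.755 TPM. Cyp19a1 alone was at 26.0 to 64.7 TPM *in vivo* and 17.5 to 41.4 TPM *in vitro*. Of the 11 granulosa markers, 3 to 4 were above the floor in each *in vivo* and 5 to 7 in each *in vitro* MII library. Inhba was at 0 *in vivo* and at 0.667 to 2.45 TPM *in vitro*, and the other granulosa markers were not separated. The part of these markers in the values was not tested.

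**Figure D3:**
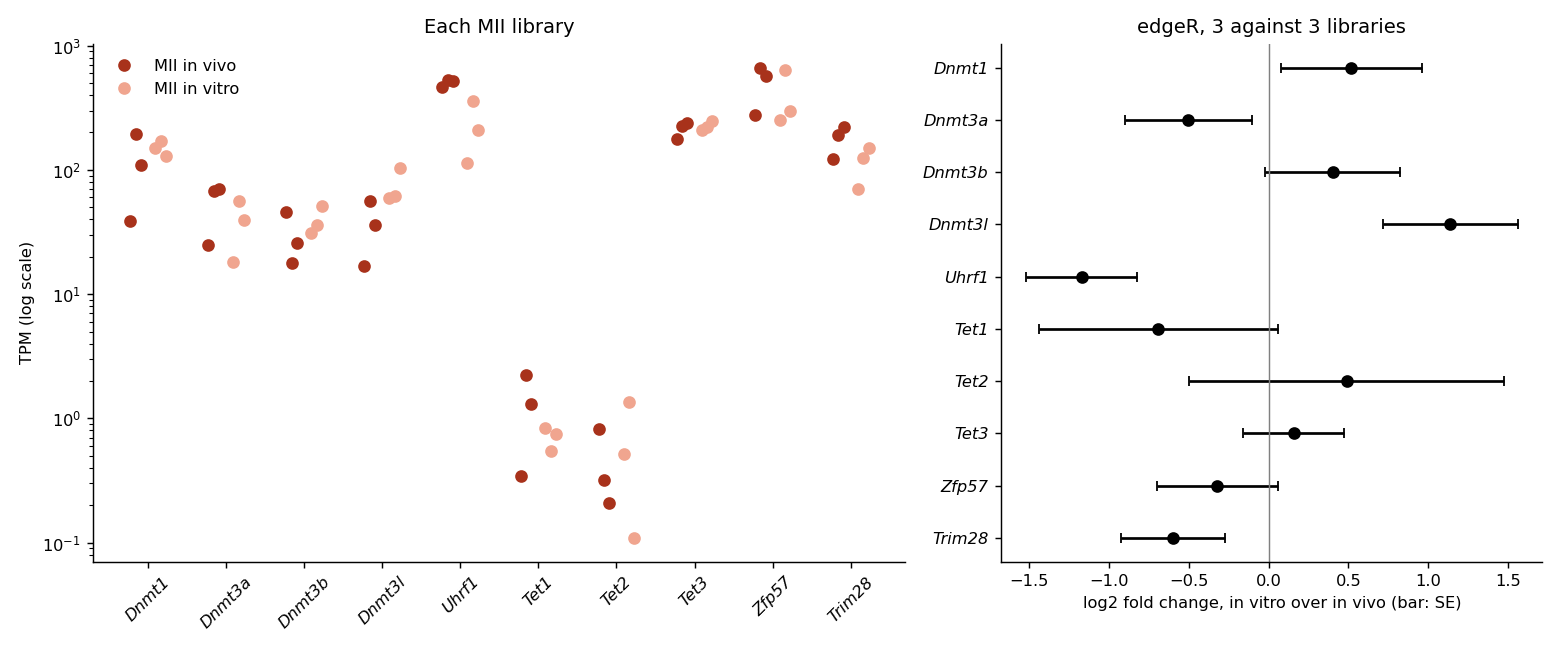
Left, TPM of each gene (log scale) in the 3 *in vivo* and 3 *in vitro* MII libraries. Right, log2 fold change of *in vitro* over *in vivo* with its SE from edgeR. Only Uhrf1 (114 to 356 against 464 to 533 TPM) and Dnmt3l (58.9 to 104 against 16.8 to 56.1 TPM) have groups that do not overlap.

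In oocytes of primordial follicles, culture and growth in the mouse were compared in 1 model of the 12 LCM libraries and 15317 genes, in which Dnmt3l could not be tested because it had under 10 counts. None of the 9 members tested was called by edgeR, against 0.0326% of all genes (5 genes), and none had an unadjusted p under 0.05, against 11.7% of all genes. No member had *in vitro* and *in vivo* libraries without overlap, against 7.11% of all genes (2.04% higher and 5.07% lower). Dnmt1 had a log2 fold change of 4.00 ± 2.65 (SE; edgeR adjusted p = 0.502), and with TPM of 0.144, 163 and 12.5 against 4.10, 6.13 and 1.65 this rested on 1 library: without primordial *in vitro* 2 it was 0.78. Trim28 had 3.19 ± 2.19 (edgeR adjusted p = 0.524), which was 5.69 without primordial *in vivo* 2 and 1.75 without primordial *in vitro* 3. Tet3 had 2.06 ± 1.52 (edgeR adjusted p = 0.57), which turned to -2.54 without primordial *in vitro* 2. Oocyte markers were also highest in primordial *in vitro* 2, at 1977 TPM against 365 and 592 TPM in the other *in vitro* libraries. The part of that library's makeup in these values was not tested. Of the 9 members 6 were higher *in vitro*, with a median of 1.35 beside 0 over all genes.

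In oocytes of primary follicles, edgeR called no member and no gene at all between *in vitro* and *in vivo* (0% of 15317 genes), while 9.66% of all genes and none of the 9 members had an unadjusted p under 0.05. DESeq2 with its defaults called no member and 254 of the 11943 genes to which it gave a p-value. Without its filters it called no member and 971 of 15317 genes. The libraries of all members overlapped between the groups, against 10.6% of all genes without overlap (9.74% higher and 0.858% lower). Trim28 had the value farthest from 0 by its SE, -2.02 ± 2.09 (SE; edgeR adjusted p = 0.876), which was -0.58 without primary *in vivo* 1. Of the 9 members 3 were higher *in vitro*. Their median was -0.41 beside 0.44 over all genes, a shift of all genes that moved between 0.17 and 0.72 with the scaling. Granulosa markers summed to 670 to 2352 TPM in the *in vitro* and 357 to 567 TPM in the *in vivo* primary libraries, and blood markers to 0 to 174 and 1157 to 7508 TPM, both without overlap. Their part in the values was not tested.

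The effect of culture at the primary stage was set against that at the primordial stage by an interaction term in the same model. No member was called, against 0.104% of all genes (16 genes), and none had an unadjusted p under 0.05, against 11.5%. The members with the smallest p were Trim28, with a difference of log2 fold changes of -5.21 ± 3.02 (SE; edgeR adjusted p = 0.527), and Dnmt1, with -4.72 ± 3.49 (edgeR adjusted p = 0.714), which was -1.49 without primordial *in vitro* 2.

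Primary follicles were then compared with primordial follicles. *In vivo*, edgeR called none of the 9 members, against 0.0522% of all genes (8 genes). Trim28 alone had an unadjusted p under 0.05, 1 of 9 against 11.2% of all genes. Its log2 fold change was 4.85 ± 2.36 (SE; edgeR adjusted p = 0.426), higher in 3 of 3 primary libraries. Dnmt1 was likewise higher in 3 of 3, with 4.54 ± 2.72 (edgeR adjusted p = 0.495), and Tet3 had 2.56 ± 1.55 (adjusted p = 0.495) with overlapping libraries. Trim28 and Dnmt1 were the 2 of 10 members without overlap, both higher, against 2.39% of all genes that were higher without overlap, 4.35% lower and 6.73% in either direction. Trim28 had only 2 counts in primordial *in vivo* 3, and its value ranged from 3.42 to 7.34 when libraries of these groups were left out. DESeq2 with its defaults called Trim28 (adjusted p = 0.0253) among 4.66% of all genes, and DESeq2 without its filters called Trim28 (adjusted p = 0.0162) and Dnmt1 (adjusted p = 0.0372) among 9.74% of all genes. Limma-voom called no member among 0.3%. The 4 blood markers also separated these groups, at 0 to 398 TPM in the primordial and 1157 to 7508 TPM in the primary *in vivo* libraries, with 1 to 4 of them above the floor in each primary library. Their part in the values of Trim28 and Dnmt1 was not tested. The 15 oocyte markers overlapped in sum, at 719.5 to 1226 and 662 to 1654 TPM, but 3 of them were higher in every primary than in every primordial library. Gdf9 was at 1.00 to 9.67 against 74.4 to 112 TPM, Zp3 at 4.61 to 10.8 against 48.1 to 88.8 TPM and Zp1 at 1.37 to 38.4 against 67.3 to 209 TPM. Gdf9, Zp3 and Zp1 were named after their values were seen, and their part in the values of Trim28 and Dnmt1 was not tested either. Other oocyte markers went the other way by their medians, with overlapping libraries. Lhx8 fell from 232 to 51.5 TPM and Dazl from 135 to 5.44 TPM, and Nobox, Sohlh1, Figla, Ooep and Kit were also lower in the primary libraries. Bmp15, Zp2, Ddx4 and Nlrp5 had higher medians there, and Oosp1 had a median of 0 in both. The comparisons share the primordial and primary *in vivo* libraries with those of culture above.

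*In vitro*, no member and no gene was called by edgeR between primary and primordial follicles (0% of all genes), and none of the 9 members and 10.9% of all genes had an unadjusted p under 0.05. DESeq2 with its defaults called no member and 450 of the 11943 genes to which it gave a p-value. Without its filters it called no member and 1278 of 15317 genes. No member was free of overlap, against 12.3% of all genes (11.3% higher and 0.983% lower). The median of the 9 members was -0.18 beside 0.44 over all genes.

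**Figure D4:**
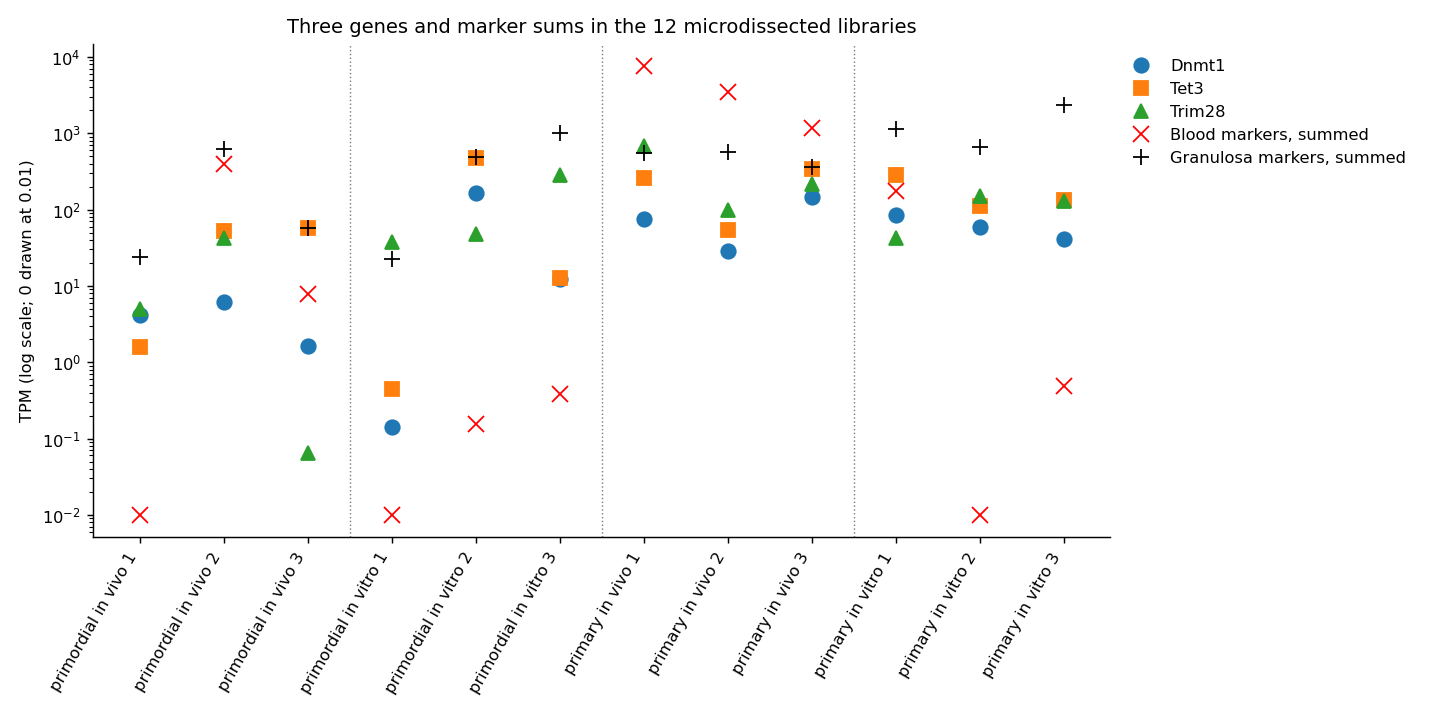
TPM (log scale, 0 drawn at 0.01) of Dnmt1, Tet3 and Trim28 and the summed TPM of blood and granulosa markers in the 12 LCM libraries, 3 per group between dotted lines. *In vivo*, Dnmt1 and Trim28 were higher in all 3 primary than in all 3 primordial libraries, and the blood markers, at 1157 to 7508 against 0 to 398 TPM, were as well.

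The wide errors at the LCM stages came with large differences between replicates. The biological coefficient of variation, the relative spread of a gene between replicates, was 2.02 in the LCM fit and 0.726 in the MII fit. A gene with at least 100 counts in 1 library of a group and at most 3 in another was frequent: Trim28 and Dnmt3b, 2 of 7 members with 100 counts, in primordial follicles *in vivo*, Dnmt3b, 1 of 8, in primordial follicles *in vitro*, and Tet2, 1 of 6, in primary follicles *in vivo*. Over all genes these shares were 45.05%, 51.4% and 60.1%, and 29.04% in primary follicles *in vitro*, where none of 6 members was so affected. In the MII groups they were 0.864% and 0.432%, with no member. Nothing in the labels says that replicates came from separate animals, and p-values measure only the spread between these samples.

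Other genes of the pathway were taken from 6 lists of 50 genes in all. In MII oocytes 1 of 49 tested was called by edgeR as higher and none as lower, against 0.35% of all genes. DESeq2 with its defaults and limma-voom each called 2 as higher and 1 as lower, against 2.05% and 2.96% of all genes. The gene called by edgeR was Mat2a, the enzyme that makes S-adenosylmethionine, the methyl donor of the DNMTs. Its libraries were at 32.2, 32.2 and 42.7 TPM *in vivo* and 85.9, 130.1 and 107.7 TPM *in vitro*, and its log2 fold change was 1.64 ± 0.31 (SE; edgeR adjusted p = 0.0458), higher in 3 of 3 libraries. The call rested on a narrow margin: the adjusted p was 0.0531 with TMMwsp, and it was lost when any library but MII *in vivo* 1 was left out (0.153 to 0.272). In each of the 5 comparisons of LCM libraries edgeR called none of the 50. DESeq2 with its defaults called 1 or 2 of the 50 in each of these, where it called 254 to 812 of the 11943 genes to which it gave a p-value. How many of the 50 were among those genes was not counted. Without its filters it also called 1 or 2 of the 50 in each, and 971 to 1779 of 15317 genes.

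By level, 8 of the 50 list genes had all MII libraries above all LCM libraries and 2 had all below, against 18.6% and 1.58% of all genes. Of the maintenance partners, Dppa3 (Stella), the maternal protein that keeps UHRF1 out of the nucleus, was at 1.33 to 10.6 TPM in the LCM and 5509 to 13320 TPM in the MII libraries, and Usp7, a deubiquitinase that binds DNMT1 and UHRF1, was at 68.0 to 1123 and 77.0 to 170.1 TPM. Among the cofactors of de novo methylation, the histone H3K4 demethylase Kdm1b was at 17.8 to 481 TPM in the LCM and 109.7 to 329 TPM in the MII libraries, and the methyltransferase Kmt2b at 19.7 to 379 and 21.8 to 60.9 TPM. Chd4, the remodeller of the NuRD complex, and the chromatin remodeller Atrx led the list of KRAB zinc finger silencing. Chd4 was at 321 to 2245 TPM in the LCM and 65.9 to 143 TPM in the MII libraries, without overlap, and Atrx at 28.8 to 458 and 38.0 to 98.7 TPM. Of the list of base excision and active demethylation, the uracil glycosylase Ung was at 0 to 3.80 TPM in the LCM and 82.2 to 130.2 TPM in the MII libraries. Ogt, the enzyme that attaches O-GlcNAc, was at 26.8 to 787 and 18.8 to 71.2 TPM. Of the methyl-CpG binding proteins, Mbd3, a subunit of the NuRD complex, was at 0 to 2236 TPM in the LCM and 7.86 to 32.7 TPM in the MII libraries. Mat2b, the regulatory subunit beside Mat2a, was at 0.593 to 230.1 TPM in the LCM and 403 to 1069 TPM in the MII libraries.

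**Figure D5:**
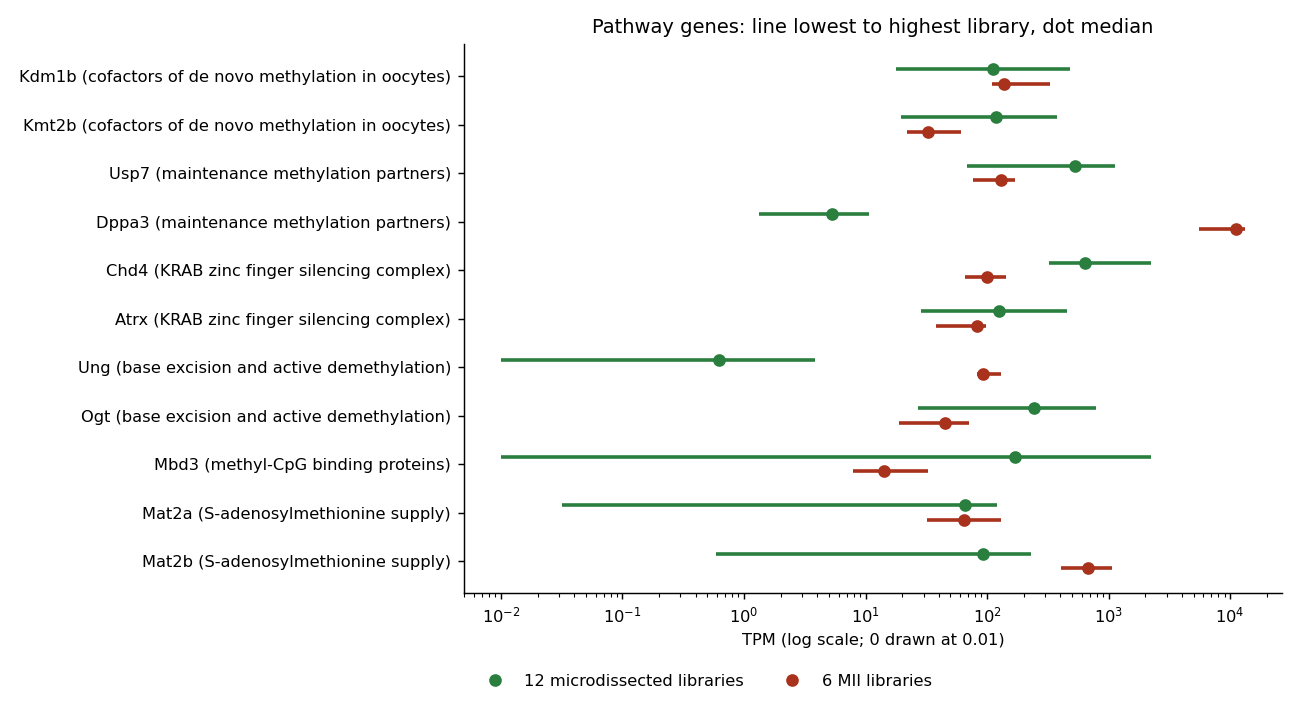
TPM (horizontal axis, log scale, 0 drawn at 0.01) of the pathway genes described above, from 6 lists. Lines run from the lowest to the highest library and dots are medians, for the 12 LCM and the 6 MII libraries. Dppa3, Ung and Mat2b had all MII libraries above all LCM libraries, and Chd4 had all below.

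Genes whose pattern was most like each member were ranked by Pearson's r of log2 CPM over the 18 libraries, as a description, since the points share kits and depth. The highest r was that of Dnmt3l with Gm49463 (0.996), then Zfp57 with Ldhb (0.984), Uhrf1 with Ccno (0.972), Tet1 with Lrwd1 (0.957), Dnmt3b with Tctn2 (0.950), Tet3 with Pan2 (0.923), Dnmt1 with Laptm4b (0.907), Trim28 with Pacsin2 (0.878), Tet2 with Timm50 (0.848) and Dnmt3a with Gga3 (0.747). Among pairs of members, the highest r over the 12 LCM libraries alone was 0.865, for Dnmt1 and Tet3, a pair picked after the values were seen. The next was 0.646, for Uhrf1 and Trim28.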

How the data were processed

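RNA was sequenced from 18 libraries. The authors trimmed reads with Trim Galore 0.4.1, mapped them to mm10 with TopHat2, counted them per gene with featureCounts and deposited raw counts. They also deposited TPM values, normalized for length and library size. The strand setting and the treatment of reads with several positions are not given in the sources used here. RNA of LCM oocytes was amplified (Ovation PICO SL WTA V2) and enriched with TruSeq RNA Access, and MII libraries were made by Smart-seq II, which limits levels to comparison within a kit.

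Groups were taken from the labels. The 10 members, the pathway lists and the markers were chosen with earlier results of these data known. Genes named outside the members were the list genes called, the 2 with the highest mean TPM of each list, and the most alike gene of each member. 1 gene that this rule names is not reported here. Dnmt3c, Aire, Dnmt3aos and Gm42567 were added as near copies or overlapping genes after their values were seen. Counts were fitted with edgeR 4.0.16 in R 4.3.3 (TMM, glmQLFit with robust estimation, at least 10 counts in total), 12 LCM and 6 MII libraries apart, and checked on simulated data. SEs are the log2 fold change over the root of F. Of 53715 gene identifiers 53620 matched GENCODE M21. The alternatives were DESeq2 1.42.0, limma 3.58.1 (voom, and log2 TPM with pseudocounts of 1 and 0.1), other scalings, filters and samples, a replicate block and leaving out each library.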

Additional observations from a re-analysis of the deposited data

How the results depend on the processing

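The number of members called was 0 by edgeR in each of the 6 comparisons, and stayed at 0 when any library was left out, with other scaling, filters or samples in the fit, without robust estimation, without a fold threshold and by limma on log2 TPM. It was 1 in MII oocytes (Uhrf1) with DESeq2 with its defaults, DESeq2 without its filters and limma-voom, and 1 and 2 for primary against primordial follicles *in vivo* with DESeq2 with and without its filters. Of the 430 refitted log2 fold changes of the 20 values named in the text, 3 had the other sign: Tet3 in primordial follicles with limma on log2(TPM + 0.1) (-0.20) and without primordial *in vitro* 2 (range -2.54 to 2.84 over the libraries left out), and Tet2 in MII oocytes without MII *in vitro* 2 (range -0.27 to 1.41). These 20 values did not cover every member at every comparison. Over all members tested, the sign changed in 1 of 210 fits in MII oocytes (1 of 10 members). Between *in vitro* and *in vivo* it changed in 7 of 189 fits in primordial (4 of 9 members) and 15 of 189 in primary follicles (5 of 9). Between the stages it changed in 12 of 189 fits *in vivo* (3 of 9) and 42 of 189 *in vitro* (8 of 9). For the interaction it was 6 of 234 (5 of 9). Uhrf1 in MII oocytes ranged from -1.51 to -0.95 with a library left out (edgeR adjusted p 0.0846 to 0.722). Counts of all genes called ranged over the tools, filters and scalings from 0 to 507 in MII oocytes, 0 to 1779 in primordial and 0 to 971 in primary follicles between *in vitro* and *in vivo*, 0 to 1492 and 0 to 1278 between the stages *in vivo* and *in vitro*, and 0 to 1590 for the interaction. With a library left out, the MII count ranged from 11 to 378. Same-numbered libraries did not deviate together (correlations of -0.0243 to 0.0691). With a replicate block the members called remained 0 in every comparison, and all genes called were 1, 0, 85, 0, 0 and 0 in the order primordial, primary and MII *in vitro* against *in vivo*, the stages *in vivo* and *in vitro*, and the interaction. Of 150 pairs of groups, 139 were ordered alike in CPM after TMM. TMM was applied to the LCM and the MII libraries apart, so pairs across the kits were not on a common scale. Dnmt3l, not fitted in the LCM libraries, was taken there as 0. Only 6 of the 30 genes most like a member by Pearson's r were also so by Spearman's rho. The alternatives for the count of members with MII above LCM libraries were chosen after seeing the data. The LCM libraries, with 3 per group and a spread between replicates of 2.02, limit what could be called there.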
